A study of Mus musculus with 14 samples.

Results

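The ubiquitin ligases of muscle wasting and transcription factors tied to some of them were followed through 14 days of muscle overload. The set holds 10 of the 19938 genes measured: the ligase genes Fbxo32, Trim63, Trim54, Trim55, Fbxo30, Fbxo21 and Fbxo40, and the transcription factor genes Foxo1, Foxo3 and Klf15. They were chosen by name, and each is read by 1 probe set whose annotation gives no other gene, so no choice among probe sets was needed. All 10 lie outside the dimmest of 3 equal classes of genes. Muscle came from male C57BL/6J mice, 5 months old. Plantaris, a calf muscle, was overloaded for 1, 3, 5, 7, 10 or 14 days by synergist ablation, in which the neighbouring calf muscles that help it are cut away, and the day 0 muscles carry no treatment label. Each day has 2 Affymetrix Mouse Gene 1.0 ST arrays, 1 of a pool of right and 1 of a pool of left muscles, each pool from 6 animals. The labels name no sham surgery and do not say how the day 0 muscles were handled, so effects of surgery and of time were not separated from those of overload. Nor do the labels say whether a day's right and left muscles came from the same animals, and the distance between a day's pools, on which every p-value rests, may be technical in part.

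A ubiquitin ligase attaches ubiquitin to chosen proteins and so marks them for the proteasome. Fbxo32 encodes atrogin-1, the substrate-binding F-box subunit of an SCF ligase, and Trim63 encodes MuRF1, a RING ligase bound to titin that ubiquitinates thick filament proteins. Both are induced in fasted, denervated and glucocorticoid-treated muscle, through FoxO factors that Akt holds out of the nucleus, and through the glucocorticoid receptor and its target Klf15. These roles come from studies of wasting muscle, and the arrays measured transcripts only, not ligase protein or activity.

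Values below are log2 of the deposited intensity, with the right pool given before the left, and changes are differences of day means on that scale, with the SE of a limma fit to all genes over all 14 arrays. A gene was called where its p, adjusted over all genes by Benjamini-Hochberg, was under 0.05. The tissue carried its label: the 12 markers of muscle fibres averaged 13.75 and 13.79 on day 14, against 13.90 in each pool of day 0, but they were lower between, at 12.99 and 13.13 on day 7. Of these 12, 7 were called lower on day 1, 12 on day 3, 11 on day 5, 12 on day 7, 7 on day 10 and 4 on day 14, with median changes of -0.30, -0.83, -0.80, -0.84, -0.31 and -0.17. The 12 macrophage and monocyte markers moved the other way: 11 of 12 were called higher on day 1 (median 2.55) and all 12 from day 3 on, with a median of 3.13 on day 3 and 1.75 on day 14. Of 10 neutrophil markers, 7 were higher on day 1 (median 2.53) and 3 on day 3 (median 0.67). Later 2 were higher and 5 lower on day 7 (median -1.08), and 1 was higher and 5 lower on day 10 (median -1.16). Their means lay apart in the day 0 pools, at 9.15 and 8.29. Of 8 satellite cell and myoblast markers, 1 was higher and 3 lower on day 1 (median -0.06). Of the same 8, 7 were higher on day 5 (median 0.95) and 7 on day 7 (median 0.85). In whole muscle, fewer cells of a type and less RNA per cell cannot be told apart. Hepatocyte transcripts differed between pools: the mean of 12 hepatocyte markers was 12.34 in the right and 10.54 in the day 1 left pool, and 12.25 in the left and 10.09 in the day 0 right pool. Pools differed at other days too, at 8.38 in the right and 10.35 in the day 5 left pool, and 8.96 in the right and 10.22 in the day 10 left pool. The day 1 right pool and the day 0 left pool were the highest of the 14, and results that turn on them are given with and without both.

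**Figure D1:**
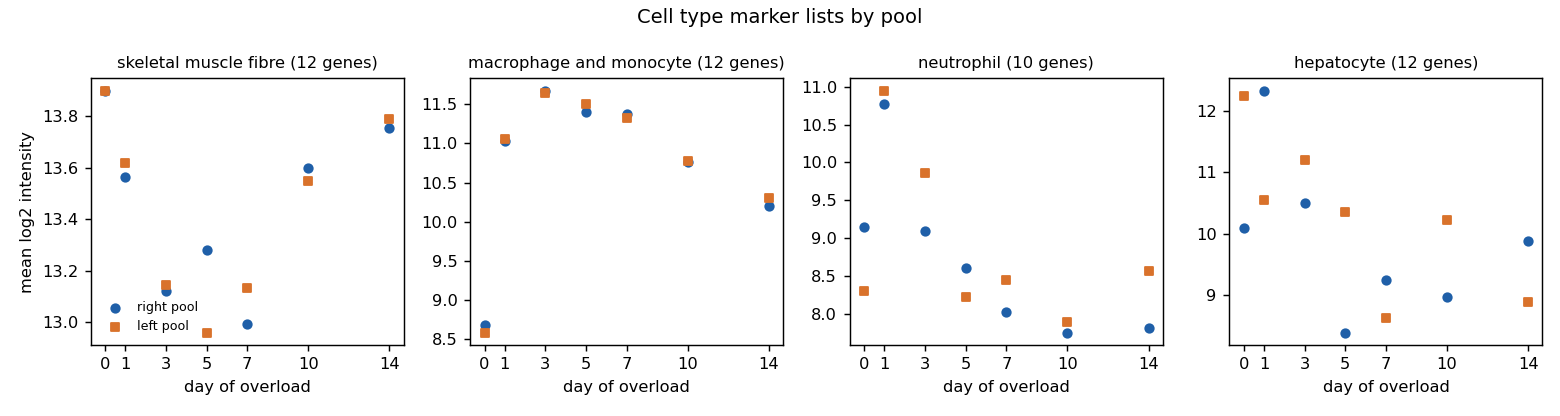
Mean log2 intensity of 4 lists of cell type markers (vertical axis) by day of overload (horizontal axis), with circles for right and squares for left pools. The fibre markers dip to 12.99 and 13.13 on day 7, the macrophage markers lie above day 0 on every later day, the neutrophil markers are highest on day 1, and the hepatocyte markers differ most between the pools of days 0, 5 and 1.

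An F test across the 7 days in limma passed 9 of the 10 genes, against 71.3% of all genes, and the exception was Foxo3. The response had an early phase with rises and a later phase made up mostly of falls. On day 1 Fbxo32, Trim63, Fbxo30 and Foxo1 were higher and Trim55, Fbxo21 and Klf15 lower than on day 0, which is 7 of 10 called, against 55% of all genes. On day 3, 5 of 10 were called, all lower, against 47.7% of all genes in either direction and 23.4% lower. The counts were 6 of 10 on day 5 and 6 of 10 on day 7, again all lower, against 65.1% and 66.2% of all genes in either direction, 38.1% and 37.8% lower, and 27% and 28.5% higher. On day 10, 7 of 10 were called, 6 of them lower, against 51.1% of all genes and 27.5% lower. On day 14, 5 of 10 were called, 4 of them lower, against 42.1% and 20.7%. In the main fit the share of these genes called was thus close to the share of all genes on days 3, 5 and 7. Every call on those days was a lower level. Under other processing the counts reached 8, 8 and 9 of 10 on those days, and the matching shares of all genes are not given. Their median change was -0.06, -0.38, -0.68, -0.88, -0.50 and -0.29 from day 1 to day 14, beside -0.14, -0.07, -0.16, -0.15, -0.11 and -0.08 for all genes. Fibre markers were lower and macrophage markers higher on the same days, neutrophil markers were higher on day 1 and satellite cell markers higher from day 3. Of 9 fibro-adipogenic progenitor markers, 6 were higher and 1 lower on day 7 (median 0.89), and 8 were higher and 1 lower on day 14 (median 1.33). Of 8 endothelial markers 6 were higher on day 14 (median 0.48), and of 6 adipocyte markers 5 were lower on day 7 (median -0.69). The part of these cell types in the changes of the 10 genes was not tested.

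**Figure D2:**
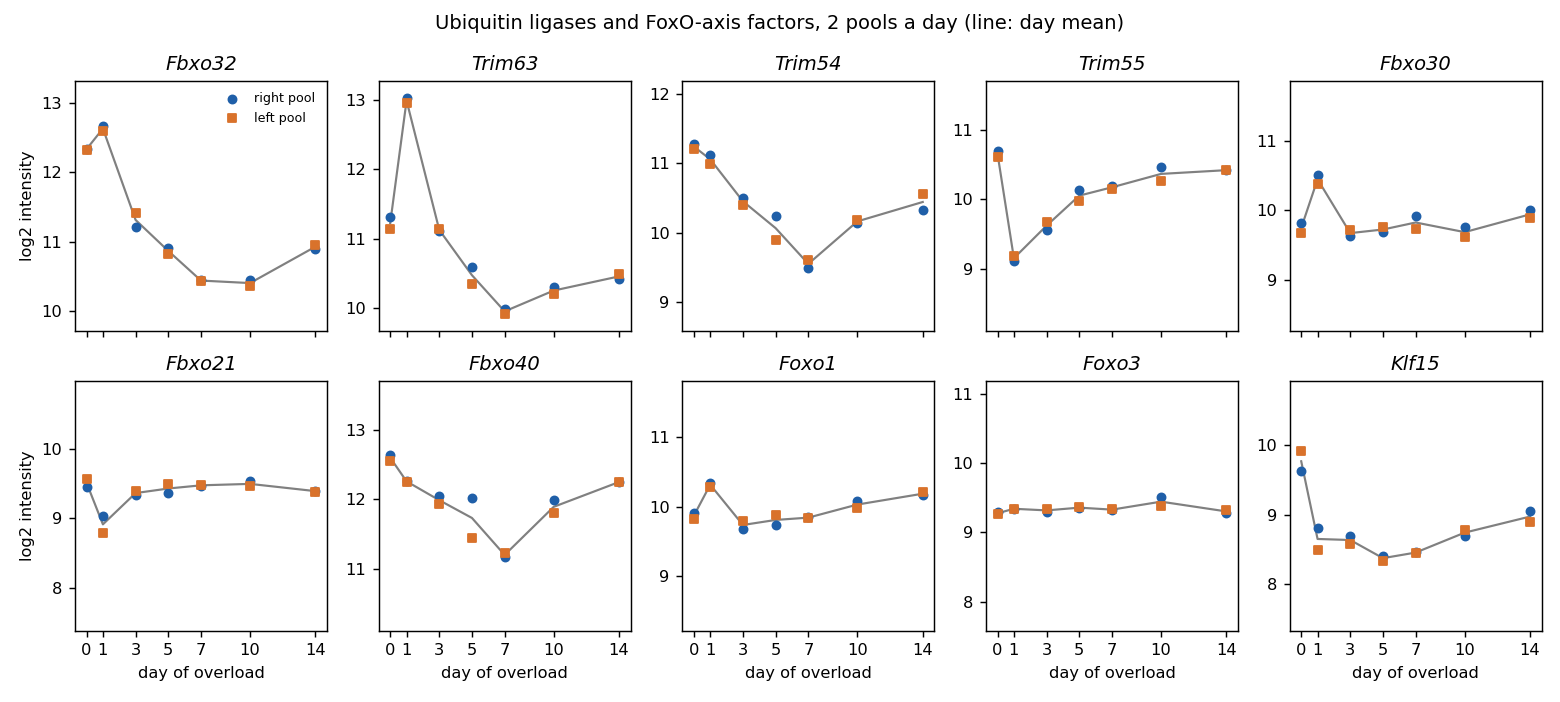
Log2 intensity (vertical axes, all spanning the same width) of the 10 genes by day of overload (horizontal axes), with circles for right pools, squares for left pools and a line through the day means. Trim63 peaks at 13.03 and 12.95 on day 1 and is lowest on day 7, Trim55 is lowest on day 1, and Foxo3 stays between 9.26 and 9.50.

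Trim63, the MuRF1 gene, had the widest course of the set, with day means spanning 8.21-fold. It read 11.31 and 11.13 on day 0, 13.03 and 12.95 on day 1, 11.11 and 11.14 on day 3, 10.59 and 10.35 on day 5, 9.99 and 9.91 on day 7, 10.31 and 10.20 on day 10, 10.42 and 10.49 on day 14. The day 1 pools stood above all others and the day 7 pools below all others. Trim63 rose 3.4-fold on day 1, by 1.77 ± 0.09 (adjusted p = 6.76e-08), and by 1.63 without the 2 pools with high hepatocyte markers. Between days 1 and 3 it lost that rise, with a difference of -1.86 ± 0.09 (adjusted p = 3.78e-07), and on day 3 its pools overlapped those of day 0. It was then lower than on day 0, with differences of -0.75 ± 0.09 on day 5, -1.27 ± 0.09 on day 7, -0.97 ± 0.09 on day 10 and -0.77 ± 0.09 on day 14. Set against day 1, its top, Trim63 was -3.04 ± 0.09 on day 7, its bottom, 8.21-fold lower.

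The promoter of Trim63 is shown because it is the only one of the set's windows that holds the FoxO element. Below are the 250 bases before the start of Trim63, and those of Trim54, another MuRF gene, whose window holds a match to the glucocorticoid core alone, and Klf15, shown as a window with neither match, all from RefSeq, build GRCm38.p6, 5′ to 3′ on the gene's strand. Capitals mark matches to the FoxO element GTAAACA or to AGAACA, the core of a glucocorticoid element, on either strand. Trim63 is at chr4:134314870-134315119, Trim54 at chr5:31116362-31116611 and Klf15 at chr6:90462326-90462575, all on the plus strand.
Trim63: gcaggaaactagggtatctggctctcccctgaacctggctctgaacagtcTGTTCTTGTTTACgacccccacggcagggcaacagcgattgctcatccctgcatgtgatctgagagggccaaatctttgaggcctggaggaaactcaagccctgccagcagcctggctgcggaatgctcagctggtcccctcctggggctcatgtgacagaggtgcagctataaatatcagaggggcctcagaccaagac
Trim54: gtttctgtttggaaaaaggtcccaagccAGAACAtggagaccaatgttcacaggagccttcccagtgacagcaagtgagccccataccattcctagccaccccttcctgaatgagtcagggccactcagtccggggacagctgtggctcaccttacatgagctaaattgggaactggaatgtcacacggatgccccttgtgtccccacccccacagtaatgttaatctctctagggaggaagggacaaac
Klf15: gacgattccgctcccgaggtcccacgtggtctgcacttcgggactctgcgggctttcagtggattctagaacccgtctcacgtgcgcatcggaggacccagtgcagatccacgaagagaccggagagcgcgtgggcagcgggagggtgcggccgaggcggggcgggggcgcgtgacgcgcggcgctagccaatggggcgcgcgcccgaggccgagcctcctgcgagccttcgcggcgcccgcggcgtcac
In Trim63 a glucocorticoid core, on the minus strand, at bases -200 to -195 from the start is followed directly, with no overlap, by a FoxO element on the minus strand at -194 to -188. Windows were found for 8 of the 10 genes, 9 windows in all because Fbxo40 has 2 starts, and none for Fbxo32 and Trim55. GTAAACA or its reverse complement stood in 1 of the 9, against 3.17% of 32851 promoter windows of the same length. AGAACA stood in 3 of 9 (Trim63, Trim54 and the downstream Fbxo40 window), against 16.1% of all windows. CAAAACA, another FoxO site, stood in 0 of 9, against 5.56%, and the KLF core CACCC in 5 of 9, against 52%. These matches describe letters in a short window and not binding.

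Fbxo32, the atrogin-1 gene, rose little on day 1 and then fell furthest below day 0. It read 12.34 and 12.33 on day 0, 12.67 and 12.59 on day 1, 11.21 and 11.42 on day 3, 10.91 and 10.82 on day 5, 10.45 and 10.44 on day 7, 10.44 and 10.37 on day 10, 10.90 and 10.96 on day 14. The pools of days 3 to 14 all lay below those of day 0. On day 1 the rise was 0.30 ± 0.08 (adjusted p = 0.00907), 1.23-fold, and it was no longer called without the day 1 right pool (0.26, adjusted p = 0.0569) or without both pools with high hepatocyte markers (0.25, adjusted p = 0.124). It then fell below day 0 by 1.02 on day 3 and was -1.47 ± 0.08 on day 5, -1.89 ± 0.08 on day 7 and -1.93 ± 0.08 on day 10, the last a 3.81-fold lower level (adjusted p = 1.43e-08). Between days 10 and 14 it rose by 0.52 ± 0.08 (adjusted p = 0.00805), against 4.67% of all genes called in that step, 2.11% higher and 2.56% lower, and it was the only one of the 10 to pass there. That call ended without the day 10 left pool (0.49, adjusted p = 0.0844) or the day 14 one (0.49, adjusted p = 0.0765).

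The other MuRF genes lay below day 0 in their means on each overload day and reached their lowest level at different times, Trim54 on day 7 and Trim55 on day 1. Trim54 encodes MuRF3, which binds microtubules and Z-discs, and Trim55 encodes MuRF2, which binds titin and microtubules. Trim54 read 11.28 and 11.21 on day 0, 11.12 and 11.00 on day 1, 10.50 and 10.41 on day 3, 10.24 and 9.89 on day 5, 9.50 and 9.61 on day 7, 10.14 and 10.19 on day 10, 10.33 and 10.56 on day 14. Both day 7 pools lay below all others, and the pools of days 3 to 14 lay below those of days 0 and 1. Its day 1 difference of -0.18 ± 0.12 did not pass the test, and it was lower with differences of -0.79 ± 0.12 on day 3, -1.18 ± 0.12 on day 5 and -1.69 ± 0.12 on day 7, 3.23-fold below day 0 (adjusted p = 2.85e-07). Day 10 was higher than day 7 by 0.61 ± 0.12, a call that ended without the day 7 right pool (0.56, adjusted p = 0.0623), and on day 14 it was still -0.80 ± 0.12 from day 0.

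Trim55 was lowest at the time when Trim63 was highest. It read 10.70 and 10.61 on day 0, 9.12 and 9.19 on day 1, 9.56 and 9.68 on day 3, 10.13 and 9.97 on day 5, 10.20 and 10.15 on day 7, 10.47 and 10.27 on day 10, 10.43 and 10.42 on day 14. Day 1 gave the lowest pools and the levels of later days lay between them and day 0. It was 2.83-fold lower on day 1 (-1.50 ± 0.09, adjusted p = 1.22e-07), where Trim63 was 3.4-fold higher. It rose in the next steps, by 0.47 ± 0.09 from day 1 to day 3 and by 0.43 ± 0.09 from day 3 to day 5, while Trim63, Trim54 and Fbxo32 each had negative differences in both. The call from day 3 to day 5 ended without the day 3 right pool (0.37, adjusted p = 0.0989) or the day 5 one (0.35, adjusted p = 0.0596). On day 10 Trim55 was still lower than on day 0 (-0.29 ± 0.09, adjusted p = 0.0172), a call that ended without the day 0 right pool or the day 10 left pool, and on day 14 the difference was -0.23 ± 0.09 (adjusted p = 0.0504), which passed under some other settings, such as quantile normalization (-0.25, adjusted p = 0.0411).

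**Figure D3:**
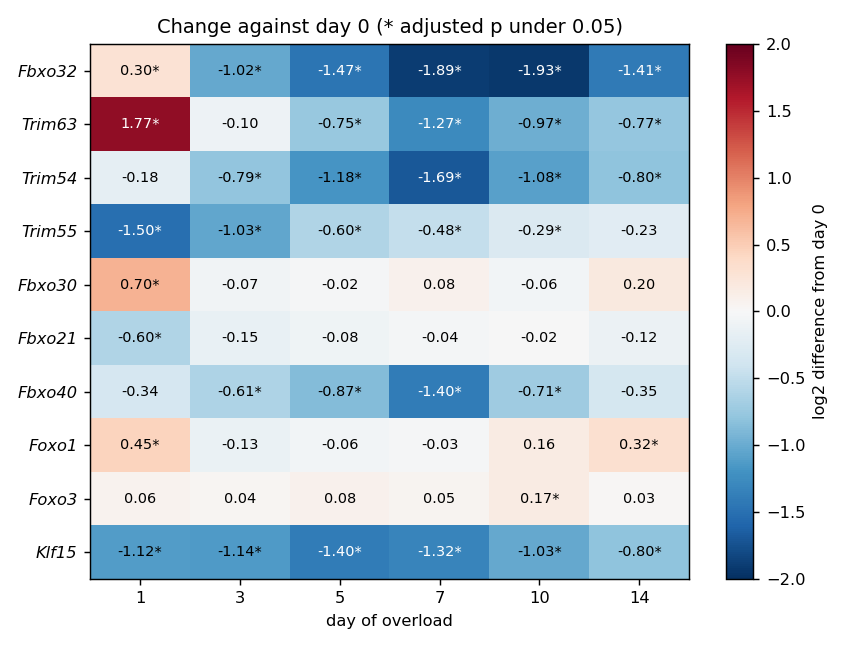
Log2 difference from day 0 of each gene (rows) at each day (columns), from red for higher to blue for lower, with an asterisk where limma's adjusted p was under 0.05. On day 1 Trim63 is at 1.77 and Trim55 at -1.50, and on day 7 Fbxo32, Trim63, Trim54, Fbxo40 and Klf15 are all past 2-fold lower.

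Fbxo30 and Fbxo21 changed on day 1 alone among the days against day 0, in opposite directions. Both encode F-box proteins that mouse studies place downstream of FoxO in denervated muscle, as MUSA1 and SMART. Fbxo30 read 9.82 and 9.67 on day 0, 10.52 and 10.38 on day 1, 9.63 and 9.71 on day 3, 9.69 and 9.76 on day 5, 9.91 and 9.74 on day 7, 9.76 and 9.61 on day 10, 10.00 and 9.89 on day 14. Its day 1 pools stood apart, 1.63-fold higher (0.70 ± 0.09, adjusted p = 6.83e-05), and the differences of days 3 to 14 lay between -0.07 and 0.20. Fbxo21 read 9.46 and 9.57 on day 0, 9.04 and 8.79 on day 1, 9.33 and 9.40 on day 3, 9.36 and 9.50 on day 5, 9.47 and 9.49 on day 7, 9.53 and 9.46 on day 10, 9.40 and 9.39 on day 14. Both day 1 pools lay below all others. It was 1.51-fold lower on day 1 (-0.60 ± 0.09, adjusted p = 1.74e-04) and within 0.15 of day 0 from day 3 on. Neither passed the test after day 1, but quantile normalization called Fbxo30 lower on day 3 (-0.20, adjusted p = 0.0482) and Fbxo21 lower on days 3, 5, 7 and 14 by 0.24 to 0.29. The pool with higher hepatocyte markers differed in Fbxo21 by 0.11 on day 0 and 0.24 on day 1, and in Fbxo30 by -0.15 and 0.13. Each gene was higher in that pool on 5 of the 7 days. The day 1 calls of both genes held in all 24 alternatives.

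Fbxo40 encodes a muscle F-box protein that ubiquitinates the insulin receptor substrate IRS1. It read 12.64 and 12.56 on day 0, 12.26 and 12.26 on day 1, 12.05 and 11.93 on day 3, 12.03 and 11.44 on day 5, 11.17 and 11.23 on day 7, 11.99 and 11.80 on day 10, 12.25 and 12.25 on day 14. Its pools on day 5 lay further apart than at any other day, and both day 7 pools lay below all others. The difference from day 0 was -0.34 ± 0.15 on day 1, which did not pass the test, -0.61 ± 0.15 on day 3, -0.87 ± 0.15 on day 5, -1.40 ± 0.15 on day 7 (adjusted p = 8.60e-06) and -0.71 ± 0.15 on day 10, the last 4 called. On day 14 it was -0.35 ± 0.15 (adjusted p = 0.0785), and without either pool of day 5, whose values lay furthest apart, both the day 1 and the day 14 differences passed (adjusted p = 0.00505 and 0.00595). The rise from day 7 to day 10 was 0.69 ± 0.15 (adjusted p = 0.00971), but it was not called without the day 7 right pool or the day 10 one (adjusted p = 0.0803 and 0.0834). In that step 2 of the 10 genes were called, both higher, against 16.5% of all genes, 6.95% higher and 9.52% lower.

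Of the transcription factors Klf15 fell, Foxo1 rose early and late, and Foxo3 held within narrow limits. Klf15 read 9.62 and 9.92 on day 0, 8.81 and 8.50 on day 1, 8.70 and 8.57 on day 3, 8.41 and 8.34 on day 5, 8.46 and 8.45 on day 7, 8.70 and 8.78 on day 10, 9.05 and 8.90 on day 14. Every overload pool lay below both day 0 pools. It was lower, with differences of -1.12 ± 0.12 on day 1, -1.14 ± 0.12 on day 3, -1.40 ± 0.12 on day 5, -1.32 ± 0.12 on day 7, -1.03 ± 0.12 on day 10 and -0.80 ± 0.12 on day 14, called at all 6 days, and 2.63-fold at its lowest (adjusted p = 1.78e-06). Klf15 was higher in the pool with higher hepatocyte markers by 0.29 on day 0 and 0.31 on day 1, and in 5 of the 7 days in all. Without those 2 pools it remained called at each day, at -1.13 on day 1, -1.25 on day 5 and -0.65 on day 14.

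Foxo1 read 9.91 and 9.83 on day 0, 10.35 and 10.28 on day 1, 9.67 and 9.80 on day 3, 9.73 and 9.88 on day 5, 9.85 and 9.83 on day 7, 10.08 and 9.98 on day 10, 10.17 and 10.21 on day 14. The pools of days 1 and 14 were the highest. It rose on day 1 by 0.45 ± 0.08 (adjusted p = 5.88e-04), 1.36-fold, and by 0.37 without the 2 pools with high hepatocyte markers. It fell back between days 1 and 3 by 0.58 ± 0.08, and its differences on days 3, 5 and 7, -0.13, -0.06 and -0.03, did not pass, although quantile normalization called all 3 lower. On day 14 it was higher by 0.32 ± 0.08 (adjusted p = 0.00746), a call that ended without the day 0 left pool (0.27, adjusted p = 0.0547) and without both pools with high hepatocyte markers (0.27, adjusted p = 0.0621). Foxo3 read 9.29 and 9.26 on day 0, 9.34 and 9.33 on day 1, 9.30 and 9.33 on day 3, 9.35 and 9.36 on day 5, 9.31 and 9.34 on day 7, 9.50 and 9.38 on day 10, 9.28 and 9.32 on day 14. The day 10 right pool was the highest, and the other 13 values lay between 9.26 and 9.38. Its day means spanned 1.12-fold (F test adjusted p = 0.334), and its single call, 0.17 ± 0.06 on day 10 (adjusted p = 0.0499), was lost in 20 of 24 alternative settings, among them quantile normalization (0.02).

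The step with the most calls among consecutive overload days came between days 1 and 3, where 7 of 10 genes were called, 5 lower and 2 higher, against 34.7% of all genes, 13.2% lower and 21.5% higher. The genes that fell were Fbxo32, Trim63, Trim54, Fbxo30 and Foxo1, and those that rose were Trim55 and Fbxo21, so each gene called on day 1, Klf15 apart, moved back toward its day 0 level or past it. Klf15 was -0.02 ± 0.12 in that step. Between days 3 and 5 Fbxo32 and Trim63 fell further and Trim55 rose, 3 of 10 against 11.2% of all genes, 6.41% higher and 4.74% lower, and the Fbxo32 call ended without the day 5 left pool (-0.40, adjusted p = 0.055). Between days 5 and 7, when 1.15% of all genes were called, 0.667% higher and 0.487% lower, Fbxo32 (-0.43 ± 0.08, adjusted p = 0.0305) and Trim63 (-0.52 ± 0.09, adjusted p = 0.0261) were called lower, but both calls ended without the day 5 right pool or without either pool of day 7, and with only the 2 days' arrays in the fit, and the Fbxo32 call was lost in 10 of 24 alternatives. A comparison of day 7 with day 1, chosen after its values were seen, called 8 of 10, 6 lower and 2 higher, against 44.6% of all genes, 19.1% lower and 25.4% higher. Fbxo32 and Trim63 were also lower than on day 1 on days 5, 10 and 14, when 40.5%, 41.9% and 41.2% of all genes differed from day 1. The shares of all genes lower were 17%, 17.8% and 16.2%, and the shares higher 23.6%, 24.1% and 25%.

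From day 7 to day 14 the set moved back up. Of the 10 genes 6 rose and 0 fell, against 29.6% of all genes called and 13.5% higher, in a comparison chosen after its values were seen. Fbxo40 rose most, by 1.05 ± 0.15, 2.07-fold (adjusted p = 3.49e-04), then Trim54 by 0.89 ± 0.12, Klf15 by 0.52 ± 0.12 (not called without the day 14 right pool, 0.44, adjusted p = 0.064), Trim63 by 0.50 ± 0.09, Fbxo32 by 0.49 ± 0.08 and Foxo1 by 0.35 ± 0.08. Over the same days the median change of the fibre markers against day 0 was -0.17 on day 14 and -0.84 on day 7, and their part in the recovery of the ligase genes was not tested. The 4 genes still called lower than day 0 on day 14 were Fbxo32 (-1.41), Trim54 (-0.80), Klf15 (-0.80) and Trim63 (-0.77).

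The order of the days differed between the genes. For Fbxo32 it was days 1, 0, 3, 14, 5, 7 and 10 from high to low, and neighbours did not differ beyond their spread between days 14 and 5 and days 7 and 10. For Trim63 it was days 1, 0, 3, 5, 14, 10 and 7, and the separated neighbours were days 1 and 0 and days 3 and 5. For Trim54 and Fbxo40 the order ran from day 0 and day 1 at the top to day 7 at the bottom, with only days 1 and 3 separated for Trim54 and no neighbours separated for Fbxo40. For Trim55 it was days 0, 14, 10, 7, 5, 3 and 1, and the separated neighbours were days 5 and 3 and days 3 and 1. For Fbxo30 it was days 1, 14, 7, 0, 5, 10 and 3, with day 1 alone separated, and for Fbxo21 it was days 0, 10, 7, 5, 14, 3 and 1, with day 1 alone separated. For Klf15 it was days 0, 14, 10, 1, 3, 7 and 5, with day 0 alone separated from its neighbour. For Foxo1 it was days 1, 14, 10, 0, 7, 5 and 3 and for Foxo3 it was days 10, 5, 1, 7, 3, 14 and 0, with no neighbours separated in either.

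Genes with the most similar course were sought among 12644 named genes outside the dimmest class, by Pearson correlation of log2 intensity over the 14 arrays. With so many candidates and 7 shared days high values are easily reached, and no test was made. Nearest to Fbxo32 were Hook1 (0.99), Oxsr1 (0.99), Hspa9 (0.98). Hspa9 encodes a mitochondrial chaperone. Nearest to Trim63 were Kctd6 (0.99), Atf4 (0.99), Slc16a1 (0.99), of which Atf4 encodes a transcription factor of the amino acid stress response and Slc16a1 a lactate transporter. Nearest to Trim54 were Asb11 (0.98), C2cd2 (0.98), Fgf1 (0.98), and to Trim55 Ndrg3 (0.99), Atxn2 (0.99), Trpm4 (0.99). Asb11 belongs to a family of ubiquitin ligase adaptors. Nearest to Fbxo40 were Usp13 (0.98), Mybpc2 (0.96), Nrap (0.96), of which Mybpc2 encodes a fast myosin-binding protein. Nearest to Fbxo30 were Usp32 (0.97), Ranbp2 (0.97), Rnf19a (0.97), to Fbxo21 Wwox (0.96), Bace1 (0.95), Naxe (0.95) and to Klf15 Fuom (0.98), Fem1a (0.97), Cox10 (0.97). The values were lower for Foxo1, with Elk4 (0.93), Gsk3b (0.92), Jarid2 (0.91), and for Foxo3, with Mbd6 (0.84), Ikzf3 (0.80), Ccl5 (0.77).

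**Figure D4:**
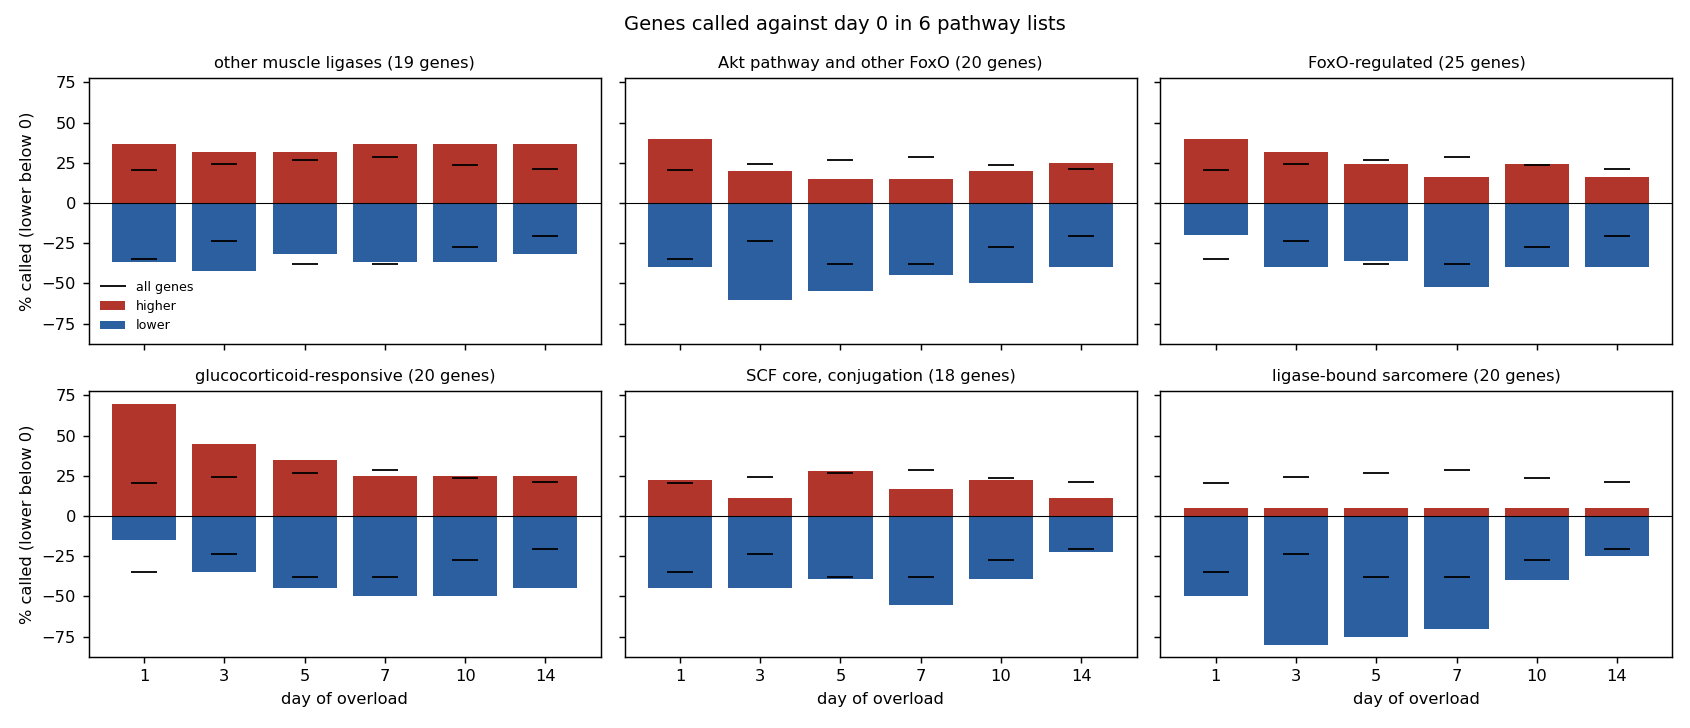
Share of 6 lists of related genes called higher (red, above 0) or lower (blue, below 0) than day 0 at each day (horizontal axis), as a percent of the measured genes of the list, with black dashes for the same shares among all genes. On day 1, 14 of 20 glucocorticoid-responsive genes are higher, against 20.3% of all genes, and on day 3, 16 of 20 sarcomere genes and ligase substrates are lower, against 23.4% of all genes.

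Other ubiquitin ligases of muscle showed no common direction. Of 19 measured, 7 were higher and 7 lower on day 1 (median difference -0.03), 7 were higher and 7 lower on day 7 (median difference -0.04), and 7 were higher and 6 lower on day 14 (median difference 0.05). Fbxo31, an F-box protein that targets cyclin D1, fell furthest (-2.04 ± 0.07 on day 7), followed by the HECT ligase Wwp1 (-1.31 ± 0.08 on day 7). Skp2, the F-box protein of the cell cycle that targets p27, rose most (1.48 ± 0.18 on day 7), ahead of Fbxl22 (0.94 ± 0.12 on day 1). Shares of all genes called were 20.3% higher and 34.7% lower on day 1, 24.2% and 23.4% on day 3, 28.5% and 37.8% on day 7, and 21.4% and 20.7% on day 14, and they apply to the other lists too.

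A list of 20 measured genes held other FoxO family genes and the pathway from insulin and IGF receptors to Akt. It also held further regulators, namely Foxj3, Sirt1, Prkaa2, Mapk14 and Nr3c1. Of the 20, 8 were higher and 8 lower on day 1 (median difference -0.03). On day 3, 4 were higher and 12 lower (median difference -0.43), against 24.2% of all genes higher and 23.4% lower. On day 7, 3 were higher and 9 lower (median difference -0.19). The related factor Foxo4 fell (-1.21 ± 0.10 on day 7), as did Prkaa2, a catalytic subunit of the energy sensor AMPK (-1.90 ± 0.12 on day 7). Igf1r, the receptor of insulin-like growth factor 1, rose (1.61 ± 0.09 on day 1), and so did Ywhaz, a 14-3-3 protein of the family that holds phosphorylated FoxO in the cytoplasm (1.22 ± 0.06 on day 7). Chosen after their values were seen, Akt1 was called higher at all 6 days, by 0.66 to 1.12, and Akt2 lower at all 6 days, by 0.23 to 0.46.

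Genes that FoxO factors are known to regulate in muscle, 25 measured, went both ways: 10 were higher and 5 lower on day 1 (median difference 0.03), 4 were higher and 13 lower on day 7 (median difference -0.25), and 4 were higher and 10 lower on day 14 (median difference -0.21). The growth arrest gene Gadd45a (2.81 ± 0.08 on day 1) and the autophagosome gene Gabarapl1 (1.35 ± 0.08 on day 1) rose most, and the mitophagy receptor Bnip3 (-1.64 ± 0.11 on day 7) and the mitochondrial superoxide dismutase Sod2 (-1.42 ± 0.08 on day 7) fell most. Sesn3, chosen after its values were seen, ran the other way, at -0.66 on day 1 and 1.32 on day 14, both called.

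Genes that respond to glucocorticoids, 20 measured, had these counts: 14 were higher and 3 lower on day 1 (median difference 0.59), 5 were higher and 10 lower on day 7 (median difference -0.16), and 5 were higher and 9 lower on day 14 (median difference -0.08). The metallothioneins Mt1 (3.16 ± 0.08 on day 1) and Mt2 (2.67 ± 0.09 on day 1), which also respond to metals and cytokines, rose most. The transcription regulators Zbtb16 (-2.58 ± 0.17 on day 7) and Tsc22d3 (-1.47 ± 0.11 on day 7) fell most. Before that fall Tsc22d3 was called higher on day 1 (0.59 ± 0.11), when Zbtb16 was not called (-0.42 ± 0.17). Sgk1, Pik3r1, Ddit4 and Sesn1 stand in this list and in one of the preceding lists, so these lists share genes.

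Of the 18 measured genes of the SCF core, ubiquitin conjugation and deubiquitination, 4 were higher and 8 lower on day 1 (median difference 0.04), 3 were higher and 10 lower on day 7 (median difference -0.18), and 2 were higher and 4 lower on day 14 (median difference -0.12). The conjugating enzymes Ube2b (-1.60 ± 0.12 on day 7) and Ube2d1 (-1.21 ± 0.08 on day 1) fell most, and the deubiquitinases Usp28 (1.48 ± 0.12 on day 1) and Atxn3 (0.70 ± 0.10 on day 7) rose most. Leaving out the day 7 right pool gave 7 calls at that day in place of 13. Of 20 sarcomere genes and ligase substrates, 1 was higher and 10 lower on day 1 (median difference -0.37), 1 was higher and 16 lower on day 3 (median difference -0.58), 1 was higher and 14 lower on day 7 (median difference -0.67), and 1 was higher and 5 lower on day 14 (median difference -0.01), and Acta1, Myh1, Myh4, Mylpf, Tnni2 and Tnnt3 are also in the list of fibre markers, and Des and Myod1 in that of satellite cell markers. The slow myosin light chains Myl3 (-3.37 ± 0.33 on day 7) and Myl2 (-2.45 ± 0.35 on day 7) fell most. Myod1, the myogenic factor that atrogin-1 targets, rose (1.26 ± 0.12 on day 3). Slow myosin Myh7 was first called lower, at -1.86 ± 0.42 on day 3 and -1.40 ± 0.42 on day 5. By day 14 it was higher than on day 0 (1.42 ± 0.42, limma adjusted p = 0.0195). Its day 1 pools lay far apart, at 9.88 and 8.11. The day 14 count of this last list, 6 in both directions, was 0 to 3 without single pools of day 0 or day 14.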

How the data were processed

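The 14 arrays were Affymetrix Mouse Gene 1.0 ST. The authors deposited 1 linear intensity for each probe set, made with Partek software per the submitters' processing notes. Its version and the summarising and normalizing steps are not given in the sources used here. Array medians lay between 242.8 and 254.9, close enough that some scaling between arrays is likely. The number of arrays limits the precision: over all genes, the SE of a log2 difference between 2 days had a median of 0.0988.

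Log2 intensity was used without further scaling. Of 35556 probe sets, 21789 carried 1 gene symbol, 1621 several, and 12146 were not listed in the annotation. The brightest probe set stood for each of 19938 genes. Limma 3.58.1 under R 4.3.3 fitted 1 mean per day, leaving 7 residual degrees of freedom beside 3.88 from the variance prior. All 21 pairs of days were read from that fit with 2-sided tests, and p-values were adjusted over all genes within each pair. The 2 comparisons of day 7 with day 1 and day 14 with day 7 were added after seeing the data. Differences of Fbxo32 and Trim63 on later days from day 1 were likewise picked out after their values were seen. The pipeline was tested on simulated data.

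The 10 genes and the lists of related genes and markers were chosen with earlier results of these data known. Lists held 132 entries, 122 measured. From each list the 2 genes with the largest called rise and the 2 with the largest called fall at any day were named, and for each of the 10 genes the 3 most alike. Other genes named are marked as chosen after their values were seen. Promoters were matched by symbol. Alternatives were other scalings, filters, probe set rules and variance priors, side as a block, only the 2 days compared, a 2-fold threshold, leaving out each array, and leaving out the 2 pools with high hepatocyte markers. Figures were drawn with matplotlib 3.10.9.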

Additional observations from a re-analysis of the deposited data

Results flagged for a closer look

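Fbxo32 and Trim63 differed from day 0 in opposite directions at different times, and the difference between those times was itself tested. These comparisons were picked because their changes had opposite signs, so they were chosen after the values were seen. Day 1 was the highest day of both genes. Fbxo32 was higher than day 0 on day 1 (0.30) and lower on days 3, 5, 7, 10 and 14. Its later days minus day 1 gave -1.32, -1.76, -2.19, -2.23 and -1.70 (SE 0.08, largest limma adjusted p = 1.01e-06), with both later pools below both day 1 pools at each of these days. For Fbxo32 these differences also hold its fall below day 0, so they do not test the day 1 rise. The day 1 rise of Fbxo32 itself was not called without the day 1 right pool or without both pools with high hepatocyte markers. Trim63 was higher on day 1 (1.77) and lower on days 5, 7, 10 and 14. Its later days minus day 1 gave -2.52, -3.04, -2.74 and -2.53 (SE 0.09, largest limma adjusted p = 1.27e-08), again with no overlap between pools. No test for outlying arrays was made, since each day has 2.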

How the results depend on the processing

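Apart from the 2-fold threshold, 24 alternatives were run on 130 comparisons of a single gene between 2 days. Of the 3120 values 3010 kept their side of the threshold, 51 lost a call, 58 gained one and 1 turned to a call of the opposite sign. In 95 of the 130 comparisons no alternative made such a change. Changes of sign among differences that were not called, such as Fbxo30 on day 5 without the day 0 right pool, are not counted here. The value that turned was Foxo3 on day 7 under quantile normalization (-0.17, adjusted p = 0.0421). Quantile normalization also gave 8 calls in place of 5 on day 3 and 4 in place of 2 for day 10 against day 7, and the cause was not tested. Among alternatives that left out no array, the counts reached 8 in place of 6 on day 5 and 9 in place of 6 on day 7. Asking for 2-fold as well left 3 genes on days 1, 3, 5 and 10, 5 on day 7 and 1 on day 14. It left 2 for day 3 against day 1, 5 for day 7 against day 1 and 1 for day 14 against day 7. The count was 0 for day 5 against day 3, day 7 against day 5, day 10 against day 7 and day 14 against day 10. Fewer genes can pass this threshold by construction. For day 7 against day 5, with 2 calls, the count was 0 with all probe sets adjusted together, 0 with only the 2 days' arrays, 1 with side as a replicate block, and 0 to 4 without single arrays. For day 10 against day 7, with 2 calls, it was 0 to 3 without single arrays and 4 without the day 0 left pool and the day 1 right pool, and for day 14 against day 10, with 1 call, it was 0 to 2 without single arrays. The lone pool left of a day was then assumed to vary like the other days. Without the 2 pools with high hepatocyte markers the counts against day 0 were 6, 5, 6, 6, 6 and 4 from day 1 to day 14, in place of 7, 5, 6, 6, 7 and 5. Right and left sides share only a label across days: right minus left differences correlated between pairs of days from -0.58 to 0.44, with side as a replicate block the counts against day 0 were 7, 5, 6, 6, 6 and 5.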
